A study of Mus musculus with 8 samples.

Results

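The 12-h contrast set liver RNA collected near the 2 light-dark transitions of the internal day against RNA collected between them. All 8 libraries of the series entered it, 4 a side. On one side were CT23, CT35, CT47 and CT59, which sample the circadian phases CT23 (end of the subjective night) and CT11 (end of the subjective day) on 2 days. On the other were CT29, CT41, CT53 and CT65, which sample CT5 (middle of the subjective day) and CT17 (middle of the subjective night). Libraries were assigned to the sides by their collection times, and each gene's contrast was estimated beside a cosine and a sine of 24 h. Of 24106 named genes, 11471 passed the read filter as transcripts and 7438 through their introns, and 7223 passed both.

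All libraries came from liver of wild-type (WT) C57/BL6 mice entrained to 12 h of light and 12 h of dark for a week and then kept in darkness for a day. Each library was made from polyadenylated RNA pooled in equal parts from 3 animals, and each time has 1 library. Sex and age are not among the labels. Every p-value therefore sets the contrast against the differences between the 2 days at matched phase, where pools, lanes and days cannot be separated. It says nothing of the spread from animal to animal.

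Transcripts with 2 peaks a day have been described in mouse liver beside the far more common 24-h rhythms, and genes of protein folding in the endoplasmic reticulum (ER) and of the heat shock response are the best known among them. Transcription by the core clock (Arntl with Clock, repressed by the Per and Cry proteins and by REV-ERB alpha) gives 1 peak a day. Intron reads come mostly from RNA not yet spliced and stand close to transcription, whereas exon reads count mature RNA that also depends on its decay. With 1 sample every 6 h, the contrast reads a 12-h rhythm only in so far as its peaks fall on the sampled phases. It is also away from 0 for a gene with 1 narrow peak or trough a day, since such a wave is not a cosine.

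The library totals that scale RPKM (reads per kilobase per 1 M reads), as recovered from the values, were 11.7 to 13.9 M reads in 7 libraries and 22.9 M in CT35. The CT35 library also had the lowest share of intron reads among gene and intron reads, 7.86% against 11.9 to 13.8%. It held the highest or the lowest of the 8 values in 46.8% of the transcripts tested, against 16.8 to 30.1% for each other library. CT35 and CT59 are the 2 days of phase CT11, so the leading transcripts, the clock genes and the lists that moved with them are also given without each. The hepatocyte markers Alb, Apoa1, Ttr, Cyp2e1, Serpina1c and Cps1 were present in every library, with summed levels of 48153 to 69290 RPKM at CT23 and CT11 and 51638 to 68181 at CT5 and CT17.

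No transcript passed the test. With limma, 0 of 11471 genes (0%) had an adjusted p under 0.05, and the smallest adjusted p was 0.0586, for Lcn2. At an unadjusted p under 0.05 there were 988 genes, of which 278 (2.42%) were higher at CT23 and CT11 and 710 (6.19%) were lower. The direction of this split rested on scaling: without setting the libraries to equal medians it was 673 higher and 366 lower, with the median gene at 0.07 in place of -0.01 on the log2 scale, and after TMM scaling it was 348 and 626. On recovered reads, edgeR called 0 genes (975 at an unadjusted p under 0.05) and DESeq2 called 29, with 2 higher and 27 lower. Over all 11471 genes, 5476 had a contrast above 0 and 5995 below. In 315 genes (2.75%) the 4 libraries of one side did not overlap the 4 of the other.

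A missed threshold does not show that a level was the same on both sides. The standard error (SE) of the log2 contrast had a median of 0.14, with quartiles of 0.13 and 0.17. For 11189 transcripts (97.5%) the 95% interval lay within 1 log2 unit of 0, and 11 had an estimate beyond it.

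The leading transcripts below are those of smallest unadjusted p in each direction with a mean of at least 1 RPKM and the same direction on both days, and none was called. Contrasts are log2 differences of CT23 and CT11 minus CT5 and CT17, on log2(RPKM + 0.5). Levels are RPKM with the libraries set to equal medians.

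The lowest p belonged to Lcn2, which encodes lipocalin 2, an acute phase protein that binds bacterial iron carriers (chromosome 2, 32240153 to 32243242, mm9). Its level was 4.43 at CT23, 4.69 at CT35, 3.31 at CT47 and 5.81 at CT59, against 7.43 at CT29, 16.2 at CT41, 6.28 at CT53 and 18.6 at CT65. The sides did not overlap, and CT17 held the highest level on both days. The contrast was -1.20 (SE 0.14, 95% interval -1.52 to -0.89), with -1.19 on the first day and -1.22 on the second. Lcn2 also had a 24-h component, with a log2 peak to trough of 1.35 and an adjusted p of 0.0114 in limma. Of 21 alternatives 4 called Lcn2, all with limma. These were unscaled RPKM (adjusted p 0.0463), a pseudocount of 2 RPKM (0.0396), 20 reads in all 8 libraries (0.0454) and leaving out CT59 (0.0107). Neither edgeR nor DESeq2 called it, and without the 24-h terms its limma adjusted p was 0.94.

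Pstpip2, an adaptor of the actin cytoskeleton in macrophages and other myeloid cells, was at 23.1, 15.5, 17.5 and 15.7 RPKM in CT23, CT35, CT47 and CT59. Against these stood 25.3, 39.0, 27.4 and 47.3 in CT29, CT41, CT53 and CT65 (chromosome 18, 78033289 to 78121618). No library of one side overlapped the other. The contrast was -0.91 (SE 0.15, limma adjusted p 0.232), and DESeq2 called it (adjusted p 3.24e-05). Its introns were lower as well, by -0.52 (SE 0.15, adjusted p 0.5).

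Timd4, a receptor for phosphatidylserine on resident macrophages (chromosome 11, 46624301 to 46657835), had its 2 higher phases at CT5 and CT17. It was at 1.24, 1.15, 1.58 and 2.17 RPKM in CT23, CT35, CT47 and CT59, and at 4.77, 3.19, 3.96 and 2.55 in CT29, CT41, CT53 and CT65. Here too the sides did not overlap. The contrast was -1.03 (SE 0.17, adjusted p 0.235), larger on the first day (-1.40) than on the second (-0.67), and that of its introns was -0.38 (SE 0.12, adjusted p 0.56).

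Markers of Kupffer cells, the macrophages of the liver, leaned the same way as Timd4 and Pstpip2. Of 9 markers 0 had a contrast above 0, beside 5476 of all 11471 genes, and 2 were lower at an unadjusted p under 0.05, beside 6.19% of all genes. Their median was -0.26, and -0.23 without CT35 and -0.29 without CT59. Markers of some other cells leaned the same way. Of 6 hepatocyte markers 0 were above 0 (median -0.12, 1 lower), of 7 endothelial markers 1 (0 lower), and of 7 stellate cell markers 2 (2 lower). Of 3 lymphocyte markers tested 0 were above 0. Cholangiocyte markers leaned the other way, with 4 of 4 tested above 0 (median 0.18). Of 4 red cell markers tested 2 were above 0 (median 0.03), and of fat and pancreas markers 1 of 1. The 2 lower Kupffer cell markers were the complement genes C1qa (-0.51, SE 0.19) and C1qb (-0.41, SE 0.15), named after their values were seen. The summed level of the 9 Kupffer cell markers was 87.1 to 98.2 RPKM at CT23 and CT11 and 87.9 to 132 at CT5 and CT17, which overlap. The 87.9 was in CT65, the library where Pstpip2 was highest and where Timd4 was lowest of its side. Their median was -0.55 on the first day and 0.05 on the second. In bulk tissue, fewer cells of a type and less RNA per cell cannot be told apart, and the part of these markers in the contrasts of Timd4 and Pstpip2 was not tested.

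Mrnip and Tubb2a were lowest at CT11 on both days, and their sides overlapped. Mrnip, a factor of DNA repair (chromosome 11, 49988351 to 50013617), was at 2.27 in CT35 and 2.64 in CT59 against 4.36 to 6.30 RPKM at CT23 and CT17 and 10.2 to 11.2 at CT5. Its contrast was -0.84 (SE 0.13, adjusted p 0.232), and 50.8% of its exon bases overlap Sqstm1 on the opposite strand, so the reads of the 2 genes cannot be separated. Tubb2a, a beta-tubulin (chromosome 13, 34166147 to 34169877), was at 5.14 in CT35 and 3.80 in CT59, but at 57.2 in CT23 and 61.8 in CT47, the highest of all. CT5 and CT17 lay between, at 24.3 to 43.0 RPKM. The Tubb2a contrast was -0.88 (SE 0.14, adjusted p 0.232), and its log2 peak to trough over 24 h was 3.68. Tubb2a thus has its peak and its trough on the same side of the contrast. DESeq2 called it as well (adjusted p 3.24e-05).

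Among transcripts higher at CT23 and CT11, the sides did not overlap for Timm10, Snrpa1 and Commd5. Timm10, a chaperone of the mitochondrial intermembrane space (chromosome 2, 84667178 to 84670370), was at 4.75, 9.62, 4.59 and 6.0 RPKM in CT23, CT35, CT47 and CT59. CT29, CT41, CT53 and CT65 were at 3.64, 3.52, 3.32 and 3.01. The contrast was 0.73 (SE 0.15, adjusted p 0.428). Snrpa1, a protein of the U2 spliceosomal particle (chromosome 7, 73205224 to 73219468), was at 3.37 to 5.35 on the higher side and at 2.39 to 2.69 on the lower (0.58, SE 0.14, adjusted p 0.448). Commd5 (chromosome 15, 76730371 to 76731727) was at 2.45 to 2.92 and at 1.45 to 1.93 (0.50, SE 0.13, adjusted p 0.448). CT35 was the highest library for all 3, by the widest margin in Timm10, while in Commd5 CT35, CT47 and CT59 were close, at 2.70 to 2.92.

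Mup17, one of the major urinary proteins that carry pheromones (chromosome 4, 61252961 to 61256903), was at 493, 523, 384 and 306 RPKM against 130, 179, 184 and 361. The contrast was 1.07 (SE 0.25, adjusted p 0.448), and CT65 overlapped the higher side. It was 1.73 on the first day and 0.41 on the second, and DESeq2 called it (adjusted p 0.00399). The Mup genes are paralogs in one cluster, many of them close, so members may share reads. Their mean levels ran from 10.7 (Mup13) to 3162 RPKM (Mup3). Looked at as a family after these values were seen, 21 of 21 tested Mup genes had a contrast above 0, beside 5476 of 11471 genes, and 15 had an unadjusted p under 0.05, beside 2.42% higher of all genes. Contrasts ranged from 0.17 to 1.07. Since members may share reads, these are not 21 separate measurements. The median was 1.11 on the first day and 0.15 on the second, and 10 members had an unadjusted p under 0.05 without CT35 and 19 without CT59. Of all genes, 159 of 11211 were higher without CT35 and 783 of 11425 without CT59. In introns 5 of 20 had an unadjusted p under 0.05, beside 2.62% higher of all genes, with a median of 0.37. The summed level was 7698, 10714, 7278 and 6034 RPKM in CT23, CT35, CT47 and CT59, and 5163, 4839, 5016 and 6727 in CT29, CT41, CT53 and CT65.

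The last of the 5 was the row of Mir546 (0.81, SE 0.20, adjusted p 0.448), a microRNA hairpin model. It lies wholly within an exon of Ctdsp2 on the same strand (chromosome 10, 126435496 to 126435616), so its reads cannot be told apart from those of Ctdsp2. It was at 18.5 to 29.9 RPKM on the higher side and at 7.30 to 26.3 on the lower, and these overlap.

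**Figure D1:**
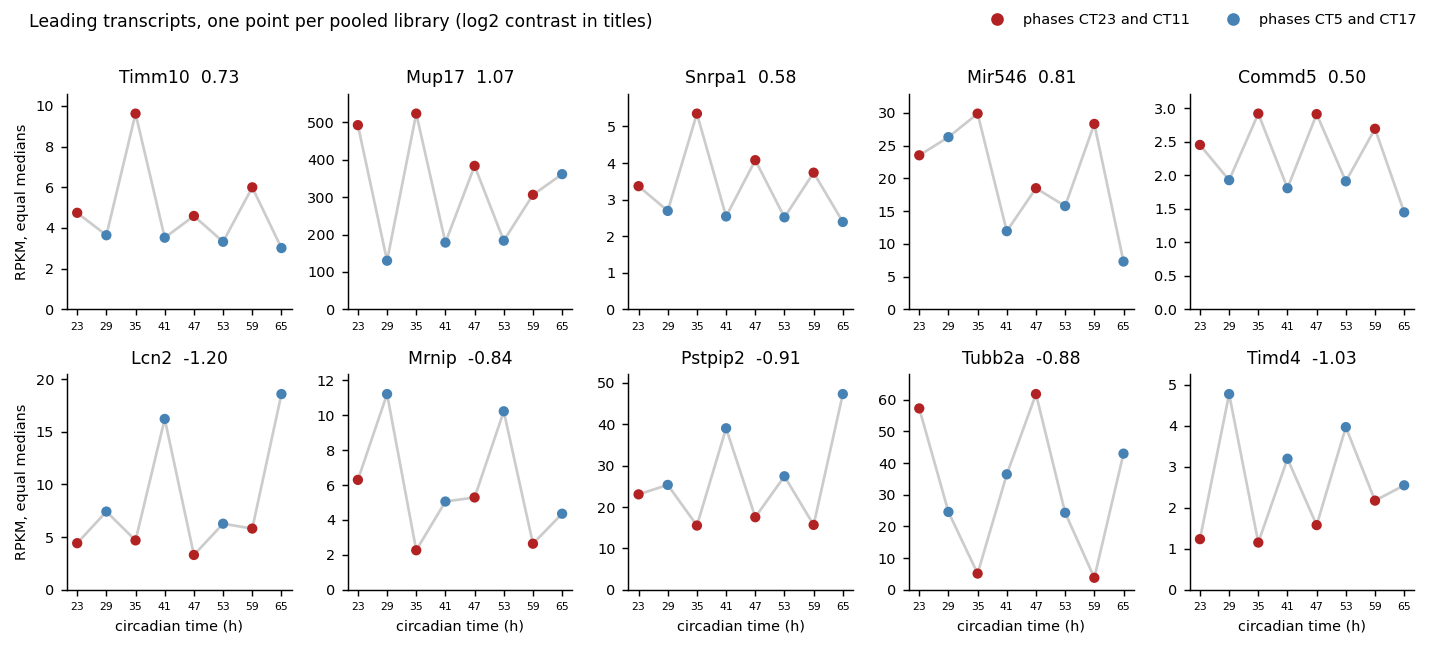
Level in RPKM (libraries at equal medians, y axis from 0) against circadian time in hours for the 10 leading transcripts, with 1 point per pooled library (red for CT23 and CT11, blue for CT5 and CT17) and the log2 contrast in each title. Lcn2 and Pstpip2 are highest at CT41 and CT65, Timd4 alternates, and Tubb2a has both its highest points (CT23, CT47) and its lowest (CT35, CT59) on the same side.

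Of these 10 leading transcripts, limma called 8 without CT59, all but Mir546 and Commd5, and 0 without CT35. Without CT35 the contrast was 0.57 for Timm10, 0.88 for Mup17, 0.47 for Snrpa1, 0.79 for Mir546 and 0.48 for Commd5. For Lcn2 it was -1.13, for Mrnip -0.79, for Pstpip2 -0.91, for Tubb2a -0.98 and for Timd4 -0.85, with adjusted p-values of the 10 from 0.1 to 0.756. All 10 directions were the same as with 8 libraries, which their choice by small p and equal direction on both days made likely beforehand. Only 1 library then stands for CT11.

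The shapes of the 988 transcripts with an unadjusted p under 0.05 were described from their 4 phase means, a description only, since the same values chose them. Both phases of one side lay above both of the other in 660 (66.8%), against 3211 of all 11471 (28.0%). In the rest, Tubb2a among them, the phases of the sides overlapped. Of the 710 lower ones, 573 had their lowest phase at CT11 and 127 at CT23, beside 3487 and 1479 of all 5995 genes with a contrast below 0. A 24-h component was called in 141 of the 988 (14.3%), against 450 (3.92%) of all. The libraries of the sides did not overlap in 212 (21.5%).

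The clock genes carried some of the largest contrasts, most of them below 0. Of 24 tested, 0 were called, 1 was higher and 8 were lower at an unadjusted p under 0.05, beside 2.42% and 6.19% of all genes. The median was -0.19 against -0.01 for all genes, and 17 of the 24 had a called 24-h component. With unscaled RPKM the median was -0.10, with 4 higher and 5 lower. It was -0.17 without CT35 (1 higher, 5 lower) and -0.19 without CT59 (1 higher, 10 lower). Of all genes, 673 were higher and 366 lower with unscaled RPKM (11471 tested). These numbers were 159 and 449 without CT35 (11211 tested), and 783 and 1337 without CT59 (11425 tested).

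Nr1d1, which encodes REV-ERB alpha (chromosome 11, 98629246 to 98636647), was at 105 in CT29 and 141 in CT53. It was at 14.4 in CT35 and 28.7 in CT59 and between 3.01 and 5.60 RPKM at the other 4 times. The contrast of -1.28 (SE 0.25, adjusted p 0.393) thus came with 1 narrow peak at CT5, a log2 peak to trough of 5.18 over 24 h. Its introns gave -1.25 (SE 0.28, adjusted p 0.342), and DESeq2 called the transcript (adjusted p 0.000191). Nr1d1 shares 9.67% of its exon bases with Thra on the opposite strand.

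Per1, a repressor of the clock (chromosome 11, 68912450 to 68923462), had 1 narrow trough instead. It was at 1.12 RPKM in CT23 and 1.98 in CT47 and between 7.25 and 15.8 at all other times. The contrast was -0.94 (SE 0.20, adjusted p 0.448), and that of its introns -0.75 (SE 0.26). Arntl, the activator (chromosome 7, 120350979 to 120457636), had its trough at CT11, with 0.255 in CT35 and 0.645 in CT59, and was highest in CT23 (11.9) and CT47 (12.4). Its transcript contrast was -0.61 (SE 0.23), and that of its introns was -0.07 (SE 0.15). Clock, the partner of Arntl, gave -0.48 (SE 0.17) in transcripts and -0.01 (SE 0.14) in introns.

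Dbp, a D-box activator, gave -0.54 (SE 0.21), and 27.4% of its exon bases overlap Sphk2. Per2 gave -0.36 (SE 0.17) and Cry1 gave 0.25 (SE 0.12). Adjusted p-values of Arntl, Clock, Dbp, Per2 and Cry1 ran from 0.5 to 0.608 in limma. DESeq2 called Dbp (-0.97, adjusted p 0.0475) and Per1 (-1.05, adjusted p 0.00248). Over all alternatives the contrast of Dbp ran from -1.89 (junction reads) to -0.14 (the larger pseudocount). Without CT35 the contrast was -1.04 for Nr1d1, -0.72 for Per1, -0.45 for Arntl and -0.40 for Clock, and without CT59 it was -1.52, -1.15, -0.77 and -0.55, with Nr1d1 and Per1 called (adjusted p 0.0182 for both). Npas2, a paralog of Clock named after its values were seen, was the 1 higher clock gene (0.93, SE 0.24). It peaked at CT23, with 5.63 and 3.92 RPKM, and was at or below 0.901 elsewhere. None of the 24 clock genes had sides that did not overlap.

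**Figure D2:**
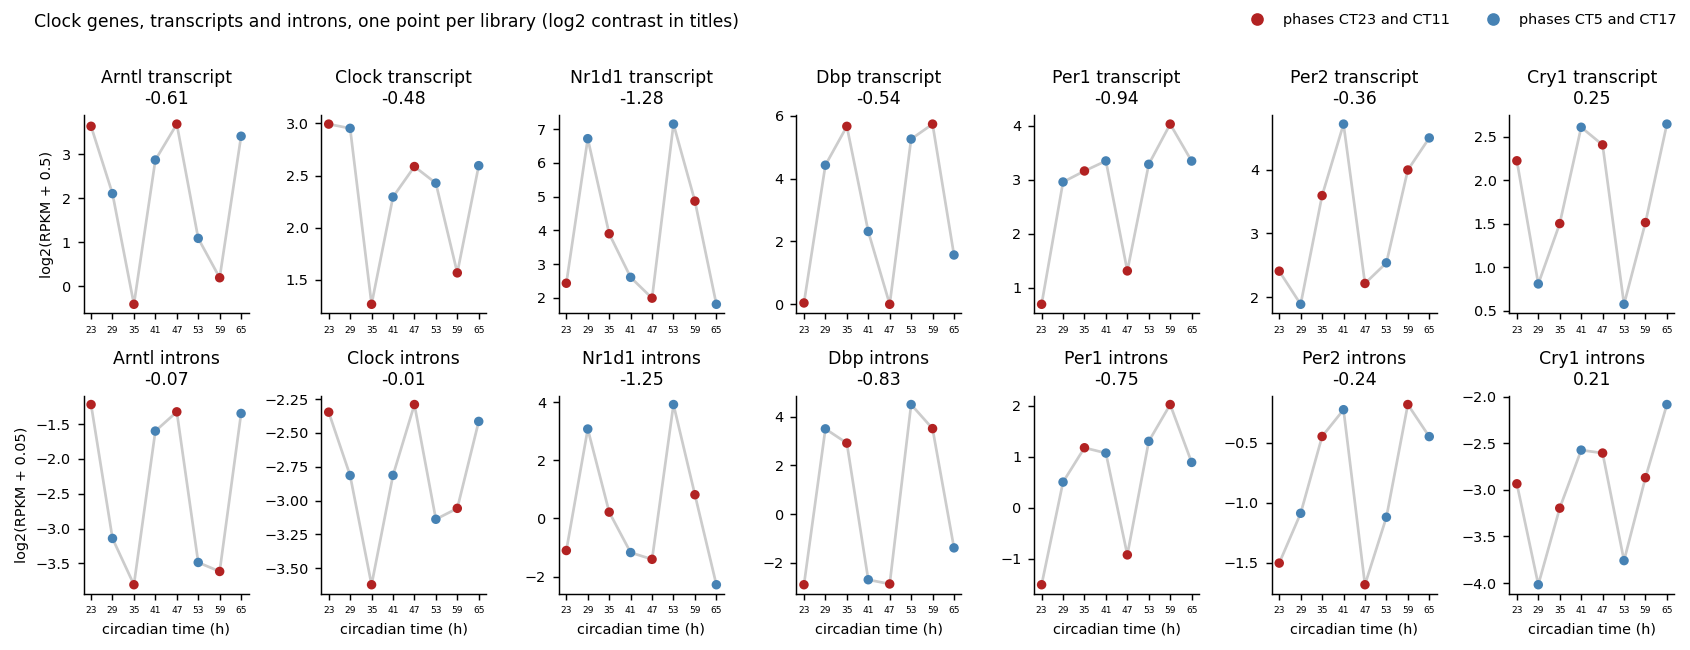
Transcript level (top, log2(RPKM + 0.5)) and intron level (bottom, log2(RPKM + 0.05)) of 7 clock genes against circadian time in hours, with 1 point per library (red for CT23 and CT11, blue for CT5 and CT17) and the log2 contrast in each title. In transcripts, Nr1d1 is narrowly high at CT29 and CT53, and Per1 narrowly low at CT23 and CT47.

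The E-box CACGTG, the site that the activators Arntl and Clock bind, was looked for on both strands of RefSeq promoters (GRCm38.p6, 300 bases around each annotated start). It was found in 5 of 19 clock genes with a promoter entry (26.3%) and in 8.09% of all 27025 genes with one. Over the other lists the share ran from 0% (Kupffer cell markers) to 33.3% (immediate early genes), with 22.2% in ER chaperones and foldases. A high share was thus not particular to the clock genes. Per1 and Cry1, whose contrasts differ in sign, are shown as 250 bases up to the start, 5′ to 3′, with the E-box in capitals (Per1 on the plus strand, chr11:69098699-69098948, and Cry1 on the minus strand, chr10:85185055-85185304). A match is a description and shows no binding.
Per1: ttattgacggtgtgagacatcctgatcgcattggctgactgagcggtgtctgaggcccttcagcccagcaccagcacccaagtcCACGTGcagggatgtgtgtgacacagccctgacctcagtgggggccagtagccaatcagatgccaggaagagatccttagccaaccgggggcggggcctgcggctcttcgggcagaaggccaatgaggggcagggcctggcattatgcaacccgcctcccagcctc
Cry1: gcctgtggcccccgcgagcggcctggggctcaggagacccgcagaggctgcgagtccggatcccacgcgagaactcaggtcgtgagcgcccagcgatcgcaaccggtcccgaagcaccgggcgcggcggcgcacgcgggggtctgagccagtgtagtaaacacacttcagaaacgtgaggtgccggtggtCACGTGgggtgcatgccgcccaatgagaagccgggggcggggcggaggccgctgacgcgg

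Genes of ER protein folding were centred on 0. Of 31 ER chaperones and foldases, 0 were called, and 0 were higher and 2 lower at an unadjusted p under 0.05. Of all genes 2.42% were higher and 6.19% lower, shares that also stand beside the transcript counts of the lists below. The list median was -0.03 with 11 above 0. The median was 0.06 with unscaled RPKM, -0.09 without CT35 and 0.05 without CT59. Hspa5, the main Hsp70 of the ER (chromosome 2, 34627615 to 34632051), was at 87.5, 113, 101 and 73.6 RPKM in CT23, CT35, CT47 and CT59. CT29, CT41, CT53 and CT65 were at 68.8, 118, 84.2 and 143. The sides overlapped, and the contrast was -0.10 (SE 0.17, 95% interval -0.49 to 0.28, adjusted p 0.885), with 0.14 on the first day and -0.35 on the second.

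Calr, the lectin chaperone calreticulin, had the highest mean of the list and gave -0.40 (SE 0.19, adjusted p 0.595), and P4hb, the protein disulfide isomerase next in level, gave 0.04 (SE 0.18). The 2 lower members, named after their values were seen, were Hyou1, an Hsp110-like chaperone (-0.51, SE 0.18), and Uggt1, which senses misfolded glycoproteins (-0.36, SE 0.13). Over the whole list the 95% intervals reached from -0.90 (Hyou1) to 0.74 (Fkbp11). In introns, 0 of 26 members had an unadjusted p under 0.05, and the median was 0.01.

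The ER stress element, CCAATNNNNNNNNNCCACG, binds the factors that switch on ER chaperones. It was found on either strand in 8 of 27 members with a promoter entry (29.6%) and in 0.137% of all genes with one. None of these matches overlapped an E-box or another of the motifs searched. The 8 genes were Calr, Canx, Creld2, Dnajc3, Ero1b, Hsp90b1, Hspa5 and Pdia6, and their contrasts ran from -0.40 (Calr) to 0.06 (Pdia6), none with an unadjusted p under 0.05. The UPR element TGACGTGG was found in 2 of the 27 (7.41%) and in 0.714% of all genes with a promoter entry. The CRE TGACGTCA was found in 0 and in 2.03%, and the E-box in 6 (22.2%) and in 8.09%. Hspa5 and Calr are shown because they carry the element and are described above (Hspa5 on the plus strand, chr2:34771840-34772089, and Calr on the minus strand, chr8:84846932-84847181). The element is in capitals, and in Calr it reads on the opposite strand. The Calr stretch also holds an E-box, which is not marked.
Hspa5: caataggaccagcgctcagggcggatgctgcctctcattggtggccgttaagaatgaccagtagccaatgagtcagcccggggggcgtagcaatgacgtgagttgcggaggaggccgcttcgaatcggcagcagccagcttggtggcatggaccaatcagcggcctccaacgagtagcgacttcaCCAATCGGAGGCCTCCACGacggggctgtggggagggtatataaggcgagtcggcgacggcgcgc
Calr: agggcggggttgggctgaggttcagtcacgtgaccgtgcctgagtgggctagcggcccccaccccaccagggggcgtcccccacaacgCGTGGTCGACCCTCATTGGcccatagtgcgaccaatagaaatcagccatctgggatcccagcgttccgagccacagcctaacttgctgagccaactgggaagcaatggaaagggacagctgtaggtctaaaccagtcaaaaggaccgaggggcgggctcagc

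The rest of the secretory pathway was likewise near 0. Of 17 genes of ER-associated degradation, 0 had an unadjusted p under 0.05, and the median was 0.10 (Herpud1 0.24, SE 0.16, and Syvn1 -0.27, SE 0.14, the 2 of highest mean). Of 18 sensors and effectors of the unfolded protein response, 1 was higher and 1 lower, with a median of 0.06 (-0.01 without CT35). Xbp1, the factor spliced on ER stress, gave 0.15 (SE 0.15) and Creb3l3 gave 0.06 (SE 0.15). The higher member was Ddit3, which encodes CHOP (0.47, SE 0.16), whose sides did not overlap and which shares exon bases with Mars1 on the opposite strand. The lower one was Ern1, which encodes the sensor IRE1 alpha (-0.42, SE 0.17).

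Of 31 translocon and N-glycosylation genes, 1 was higher (Sec61b, 0.64, SE 0.29) and 1 lower (Gmppb, -0.41, SE 0.18, with 35.3% of its exon bases overlapping Rnf123 on the opposite strand), with a median of 0.01. Of 38 genes of transport between ER and Golgi, 1 was lower (Arf4, -0.62, SE 0.23) and the median was -0.01. Of 28 cytosolic chaperones and targets of the heat shock factor HSF1, 0 were higher and 2 lower, and the median was -0.03. The 2 were the co-chaperones Stip1 (-0.48, SE 0.13) and Bag3 (-0.37, SE 0.17), while Hsp90ab1 (-0.19, SE 0.14) and Hspa8 (-0.02, SE 0.20) had the highest means. The heat shock element GAANNTTCNNGAA was found in 4 of 22 of these genes with a promoter entry (18.2%) and in 0.662% of all genes with one. Members other than the 2 of highest mean in this and the other lists were named after their values were seen.

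Fatty acid synthesis lay lowest among the metabolic lists. Of 24 genes of fatty acid synthesis, 0 were higher and 7 lower at an unadjusted p under 0.05, and the median was -0.20. It was -0.30 without CT35, -0.18 without CT59 and -0.11 with unscaled RPKM (2 lower, beside 366 of all 11471 genes). Mlxipl, the carbohydrate response factor ChREBP, gave -0.70 (SE 0.19, adjusted p 0.448). It was at 280, 98.0, 196 and 154 RPKM in CT23, CT35, CT47 and CT59 and at 210, 318, 252 and 342 in CT29, CT41, CT53 and CT65, and the sides overlapped in CT23. Scd1, the stearoyl-CoA desaturase and highest of the list, gave -0.35 (SE 0.14). The introns had 4 of 23 members lower and 0 higher, beside 3.97% and 2.62% of all genes, and a median of -0.34. Introns of other metabolic lists leaned below 0 as well. PPAR alpha targets had 6 of 23 lower and 0 higher (median -0.21). Cholesterol synthesis had 2 of 21 lower and 0 higher (median -0.15), and bile acid genes had 2 of 19 lower and 0 higher (median -0.13).

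Of 27 PPAR alpha targets, 0 were higher and 5 lower, with a median of -0.09 (-0.01 with unscaled RPKM). Cyp4a14, a fatty acid omega-hydroxylase (chromosome 4, 115158805 to 115168746), had the largest contrast of all transcripts, -1.57 (SE 0.42, adjusted p 0.448). It was at 17, 16.6, 44.6 and 57.5 RPKM against 139, 66.9, 169 and 37.3, overlapping in CT65, with -2.49 on the first day and -0.65 on the second. Its paralogs Cyp4a10 (-0.79, SE 0.24) and Cyp4a31 (-0.92, SE 0.27) leaned the same way and may share reads with it. Its introns gave -1.82 (SE 0.39, limma adjusted p 0.271). Fabp1, the fatty acid binding protein of hepatocytes, had the highest mean and gave 0.15 (SE 0.26).

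Of 20 bile acid genes, 3 were higher and 1 lower, with a median of 0.05. Cyp7a1, the rate-limiting enzyme of bile acid synthesis, gave 0.77 (SE 0.27, adjusted p 0.5) with 10.9, 40.3, 31.0 and 36.4 RPKM against 8.00, 23.5, 9.42 and 31.3. CT5 was its low phase on both days. Of 24 cholesterol synthesis genes 0 were higher and 2 lower (median -0.04, and -0.22 without CT35). Of 19 glucocorticoid-induced genes 3 were higher and 4 lower, with the metallothionein Mt2 at 1.17 (SE 0.34) and Lcn2 and Per1 at the other end. Of 24 acute phase genes 1 was higher and 3 lower, and apart from Lcn2 the lower ones were the serum amyloids Saa4 (-0.59, SE 0.17) and Saa2 (-0.62, SE 0.23).

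Of 15 immediate early genes 0 were higher and 3 lower, among them Jund (-0.80, SE 0.23). Gluconeogenesis (21 tested) and insulin signalling (22 tested) had 0 higher and 1 lower each, in both cases the insulin receptor substrate Irs2 (-0.57, SE 0.19).

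Lists of housekeeping complexes lay above 0, and this moved with CT35. Of 75 cytosolic ribosomal protein genes, 61 had a contrast above 0, beside 5476 of all 11471 genes, and the median was 0.18. At an unadjusted p under 0.05, 2 were higher and 0 lower, and the share higher is near the 2.42% of all genes. Without CT35 the median was 0.04, with 1 higher, beside 159 of all 11211 genes. Without CT59 it was 0.32, with 33 higher, beside 783 of all 11425 genes. The nuclear subunits of oxidative phosphorylation behaved alike: 57 of 65 above 0, a median of 0.14, 0.03 without CT35 and 0.29 without CT59. For 36 proteasome genes the median was 0.14, 0.02 without CT35 and 0.24 without CT59. Rpl41, next to Rps26 (0.04, SE 0.19) in mean level, was at 445 RPKM in CT35 and 138 to 212 in the other 7 libraries (0.60, SE 0.29, adjusted p 0.595). For 32 SR proteins and hnRNPs, 1 was higher and 0 lower, and the median was 0.06.

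Markers of other cell types are given for their whole lists. Sinusoidal endothelium (7 markers) had summed levels of 51.0 to 58.4 RPKM at CT23 and CT11 and 55.3 to 66.4 at CT5 and CT17, and a median contrast of -0.10. Stellate cells (7) were at 47.4 to 67.0 and 50.9 to 76.5 with a median of -0.14. Cholangiocytes (5) were at 15.7 to 33.1 and 15.2 to 18.7, with a median of 0.18 over the 4 tested. Red cells were at 66.4 to 125 and 75.4 to 106, and lymphocytes at 2.09 to 3.74 and 2.40 to 3.82. For fat and pancreas the sums were 1.57 to 4.72 and 2.49 to 3.04, with Plin1, Cel and Amy2a5 at 0 in every library. All these ranges overlap between the sides, and their part in the contrasts was not tested.

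**Figure D3:**
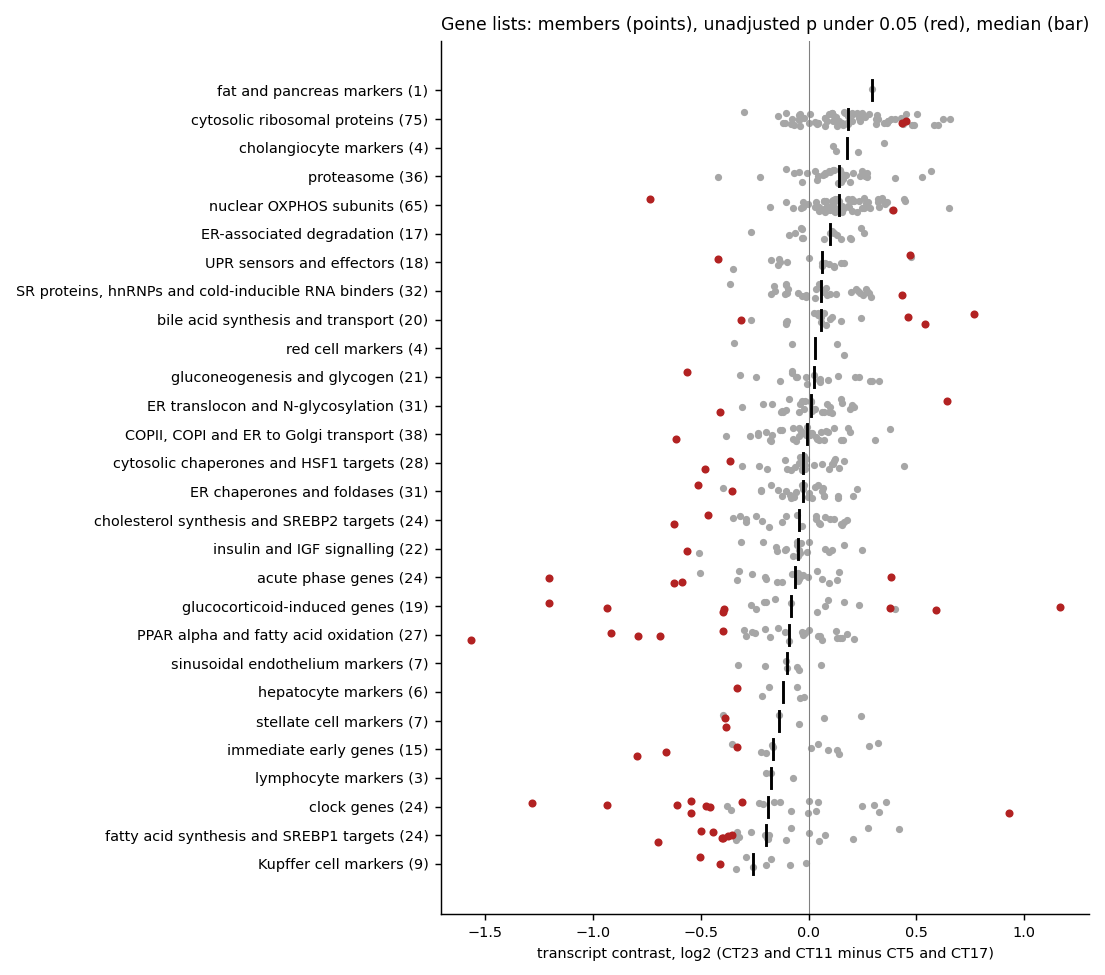
Log2 contrast of each tested member (points, with those at an unadjusted p under 0.05 in red) and the median (black bar) for 28 gene lists, with the number tested in parentheses. ER and secretory lists have medians of -0.03 to 0.10, Kupffer cell markers, fatty acid synthesis and clock genes lie lowest, and ribosomal, proteasome and respiratory chain lists lie above 0.

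In introns the result was the same. With limma 0 of 7438 genes (0%) were called, and the smallest adjusted p was 0.138. At an unadjusted p under 0.05 there were 195 higher (2.62%) and 295 lower (3.97%). edgeR called 1 gene (Bhmt, 483 at an unadjusted p under 0.05) and DESeq2 called 4 (Bhmt, Cyp4a32, Gss and Chrna4). The sides did not overlap in 182 genes (2.45%). The median SE was 0.17, and for 7108 genes (95.6%) the 95% interval lay within 1 log2 unit of 0. Contrasts of introns are on log2(RPKM + 0.05).

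Of the 5 leading introns on the lower side, Chrna4, a subunit of the nicotinic acetylcholine receptor, had the largest contrast, -1.53 (SE 0.24, adjusted p 0.138). Its introns were at 0.0794, 0.0566, 0.0912 and 0.00886 RPKM in CT23, CT35, CT47 and CT59 and at 0.105, 0.603, 0.129 and 0.365 in CT29, CT41, CT53 and CT65. The sides did not overlap, and the transcript went the same way (-1.02, SE 0.26). It was called without CT35 (adjusted p 0.0228) and with unscaled RPKM (8.11e-07).

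Cyba and Itgb2 were also among the 5. Cyba, the p22 subunit of the NADPH oxidase, was at 0.185 to 0.552 RPKM against 0.544 to 1.05 (-1.25, SE 0.20). Itgb2, the beta chain of leukocyte integrins, was at 0.0328 to 0.0534 against 0.0685 to 0.0969, with no overlap (-0.60, SE 0.11). These levels are near the pseudocount of 0.05, and over the settings tried the contrast of Itgb2 ran from -1.10 to -0.26. The Kupffer cell markers gave a median of -0.19 in introns, with 1 of 7 above 0, and their part in these contrasts was not tested. Prss50 (-1.04, SE 0.19) was low at CT11, and the noncoding 2900089D17Rik (-1.21, SE 0.20) was high at CT5 only, with 2.53 RPKM on both days against 0.283 to 0.643. All of these had an adjusted p of 0.138, and with unscaled RPKM Cyba (adjusted p 0.00981) and 2900089D17Rik (0.0183) were called as well.

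Among the 5 leading introns on the higher side Bhmt, the betaine-homocysteine methyltransferase (chromosome 13, 94386846 to 94407916), had the largest contrast, 1.13 (SE 0.20, adjusted p 0.138). Its introns were at 0.678 RPKM in CT29 and 0.939 in CT53 and at 5.60 to 17.5 in the other 6 libraries, so that 1 phase, CT5, was low. The log2 peak to trough over 24 h was 4.37 (adjusted p 5.3e-05). The transcript stayed within 241 to 381 RPKM and gave -0.01 (SE 0.19). Only 3 of its 7 introns overlap no exon of another transcript.

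Slc25a51, the mitochondrial NAD carrier, was higher by 0.95 (SE 0.17, adjusted p 0.138), with its highest intron levels in CT35 (0.403) and CT59 (0.536) against 0.0882 to 0.195 elsewhere. The 3 others were 1700042O10Rik (0.92, SE 0.20), Zfp276 (0.62, SE 0.14) and Ppp1r1b (0.89, SE 0.21), with adjusted p from 0.271 to 0.38. Exon bases of Zfp276 overlap Fanca on the opposite strand (21.1%).

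Transcript and intron contrasts leaned the same way. Across 7223 genes Pearson's r was 0.44, a description across genes that share libraries and are not independent replicates. Both had the same sign in 63.8% of these genes. Of 567 with an unadjusted p under 0.05 in transcripts, 463 (81.7%) had the same sign in introns. In 120 genes both had an unadjusted p under 0.05, and in all 120 the signs were equal. The 2 readouts come from the same pools, so this is no replicate check.

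**Figure D4:**
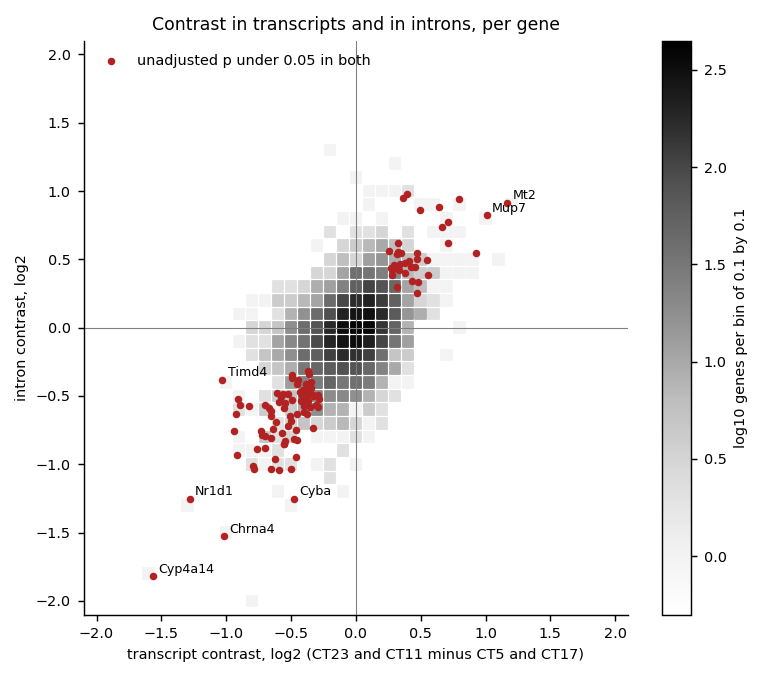
Log2 contrast of introns against that of transcripts over 7223 genes, as shaded bins of 0.1 by 0.1 (log10 of genes per bin, values beyond 2 drawn in the outermost bin), with the 120 genes at an unadjusted p under 0.05 in both as red points. All red points have equal signs on both axes, with Cyp4a14, Nr1d1 and Chrna4 at the lower left.

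The difference between the transcript and the intron contrast of a gene was tested directly. With limma 0 of 7223 (0%) were called, with a smallest adjusted p of 0.521, and 526 (7.28%) had an unadjusted p under 0.05, 235 of them with the transcript contrast above that of the introns. The median SE of this difference was 0.17.

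Among the 5 of smallest p with the transcript contrast below that of the introns, Vps33b, a protein of vesicle sorting, gave a difference of -0.95 (SE 0.16). Its transcript was at 1.59 to 2.66 RPKM against 2.78 to 4.21, with no overlap (-0.70, SE 0.14), while its introns gave 0.25 (SE 0.14). Tubb2a gave -0.88 in transcripts and 0.06 (SE 0.22) in introns, a difference of -0.95 (SE 0.19). Shank2 was alike, with -0.85 (SE 0.16), -0.03 (SE 0.13) and a difference of -0.81 (SE 0.17). For Bhmt (-1.14, SE 0.23) and Srr, the serine racemase (-0.86, SE 0.17), the introns gave 1.13 and 0.67 (SE 0.19) and the transcript -0.01 and -0.19 (SE 0.14). In Srr 33.5% of exon bases overlap Tsr1 on the opposite strand.

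On the other side, Cyp2a5, a cytochrome P450 with close paralogs, gave 0.87 (SE 0.17), with 0.08 (SE 0.28) in transcripts and -0.79 (SE 0.28) in introns. Gss, the glutathione synthetase, gave 0.79 (SE 0.16). Its introns were at 6.83 in CT41 and 6.02 in CT65 against 1.25 to 1.92 RPKM elsewhere, and its transcript at 21.6 and 21.5 against 10.7 to 21.4. Fbxl8 (0.96, SE 0.20), Letm2 (0.90, SE 0.19) and Nat9 (0.65, SE 0.14) completed the 5. Adjusted p-values of these 10 differences ran from 0.521 to 0.565. The transcript contrasts of Bhmt, Srr, Cyp2a5, Gss, Fbxl8, Letm2 and Nat9 ran from -0.23 (Gss) to 0.17 (Letm2).

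The count of called transcripts depended on CT59. Without it limma called 191 of 11425 genes (54 higher, 137 lower), and 2120 had an unadjusted p under 0.05. Without any other single library 0 were called. With CT59 left out, phase CT11 rests on CT35 alone, which is assumed to vary like the other libraries. In 176 of the 191 (92.1%) CT35 held the highest or the lowest of the 8 values. Without CT35 in place of CT59, 181 of the 191 kept their direction. An unadjusted p under 0.05 in the same direction was found for 101, beside 608 of all 11211 genes in either direction. The 2 fits share all other libraries, and the 191 were chosen by small p, so most directions and many small p-values were likely to hold. Among the 191 were Lcn2 (-1.27), Nr1d1 (-1.52), Per1 (-1.15) and Cyp4a14 (-2.01) on the lower side. On the higher side were 9 members of the cytosolic ribosomal protein list, such as Rpl23a (1.11) and Rpl41 (1.02). That list had 75 genes tested with all 8 libraries, and of all 11425 genes 54 were called higher.

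**Figure D5:**
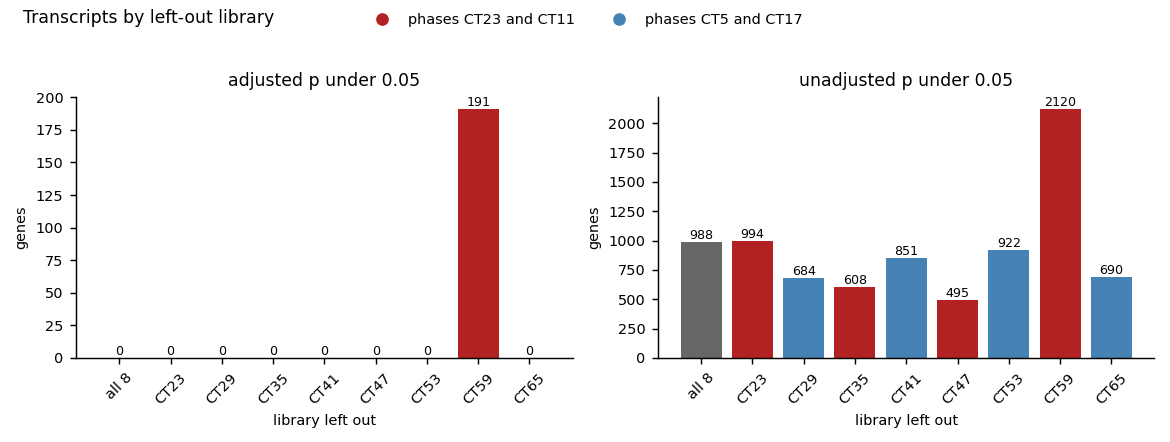
Number of transcripts (bars, y axis from 0) at an adjusted p under 0.05 (left) and at an unadjusted p under 0.05 (right) with all 8 libraries (grey) and with each library left out (red for CT23 and CT11, blue for CT5 and CT17). Leaving out CT59 gives 191 and 2120 genes, and leaving out CT47 gives the fewest at an unadjusted p, 495.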

How the data were processed

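Liver RNA of 8 pools was sequenced, 1 library per circadian time. Coordinates are those of mm9, the build that the submitters' processing notes name. The authors deposited, for each transcript, exon and intron, values named min and max per the file headers. These scale as RPKM, and neither their difference nor the quantifying program and strand setting is stated in the labels or headers. The lower value was used. Junction tables hold whole-number counts of spliced reads from RUM, per the file headers. Dividing each value by the step of 1 read recovered whole reads for 99.997 to 100% of values per library. Gene reads numbered 7.76 to 8.92 M in 7 libraries and 16.8 M in CT35. Of 115699 transcripts 68.89% were named through RefSeq or Vega identifiers and the GRCm38.p6 annotation, which gave no coordinates of genes. Each gene was its transcript with the most reads. Of the introns, 80.85% overlapped no exon of another transcript and were used.

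The test planned for RPKM was limma 3.58.1 (R 4.3.3) with a trend in the mean and robust variances, on log2(RPKM + 0.5), or + 0.05 for introns, for at least 20 reads in at least 2 libraries. The differences of logs were fitted without the trend. Libraries were centred on equal medians, since their intron share differed. The model held the side and 24-h cosine and sine, with 4 residual degrees of freedom. In limma each gene's variance was moderated across genes, so its p-values and intervals rest on more degrees of freedom than these 4. Benjamini-Hochberg adjusted p-values under 0.05 were called. Alternatives were scaling, pseudocount, filter, the upper value, library weights, the 24-h and day terms, each library left out, edgeR 4.0.16, DESeq2 1.42.0 and junction counts. Named were, each way, the 5 genes of smallest p (mean at least 1 RPKM, introns at least 0.05, same direction on both days), 7 clock genes and the 2 members of highest mean per list. Some of the genes so named are not reported here. The contrast, members, lists and rule were chosen with earlier results of these data known. The tests were tested on simulated data.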

Additional observations from a re-analysis of the deposited data

Results flagged for a closer look

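The CT35 library stood apart from the other 3 of its side in depth. Its gene reads numbered 16.79 M against 7.91 to 8.92 M, a gap of 0.887 of the whole range, and its junction reads 14.75 M against 5.42 to 6.23 M, a gap of 0.914. Both gaps are above Dixon's 95% critical value for 4 samples. In all, 44 groups of 4 libraries were checked, and chance alone gives about 1 in 20.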

How the results depend on the processing

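With limma 0 transcripts were called under TMM scaling, pseudocounts of 0.1 and 0.01, no filter, the upper deposited value, library weights, a day term, or no 24-h terms, and edgeR called 0 on recovered and on junction reads (504 of 8593 genes at an unadjusted p under 0.05). The count was 1, Lcn2, with unscaled RPKM, with pseudocounts of 2 and 0.2 and with 20 reads in all libraries, and 29 with DESeq2. Over left-out libraries it ran from 0 to 191, with 191 without CT59. For introns it was 11 with unscaled RPKM, 6 with no filter, 1 with edgeR, 4 with DESeq2 and 0 to 1 over left-out libraries (D630024D03Rik without CT23 and Chrna4 without CT35). For the difference it was 5 with no filter and 0 to 1 over left-out libraries (Mup6 without CT59), and 0 otherwise. The cause was not tested. Over the alternatives the named transcripts had another sign in 62 of 1440 values, and the named introns and differences in 0 of 183 and 0 of 172. These introns and differences were chosen by small p and equal direction on both days, so a constant sign was likely beforehand. The labels carry no replicate numbers, but the times give the day, and with a day term as a block 0 transcripts, introns and differences were called, with 838, 500 and 503 at an unadjusted p under 0.05.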
